A study of Homo sapiens with 17 samples.

Results

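The genes followed here are 8 genes of phosphoinositide 3-kinase (PI3K) signaling: the kinases AKT1 and AKT2, the catalytic subunits PIK3CA, PIK3CB, PIK3CD and PIK3CG, the regulatory subunit PIK3R5 and the lipid phosphatase INPP5D. They are 8 of the 58302 gene identifiers in the count tables, matched by gene symbol to Ensembl identifiers. They were chosen by their CPM and TPM values in these same libraries, to set isoforms classed as broadly expressed or endothelial (AKT1, AKT2, PIK3CA and PIK3CB) against isoforms classed as leukocyte (PIK3CD, PIK3CG, PIK3R5 and INPP5D). Their values are therefore given as a description, without p-values. All 8 had reads in each of the 13 count libraries and values above 0 in each of the 4 sorted-cell tables.

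The cells were derived from H1, a human embryonic stem cell line, carrying a GATA2/eGFP reporter, which reports the endothelial and blood transcription factor GATA2. Reporter-positive endothelial cells were made without or with vitamin C, sorted and sequenced, with 2 libraries per condition. Sorted cells were also plated again and sequenced at 0, 24, 36, 48 and 60 h, with 1 library for each time and condition. A further 3 libraries, all from cells made with vitamin C, hold cells still adherent at 60 h, cells in suspension at 60 h and cells in suspension at 96 h. Only 1 cell line was used, and the labels name no separate cultures behind the libraries of a group, so any spread between them may be technical.

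Class I PI3Ks phosphorylate a membrane lipid to make PIP3, which recruits AKT, BTK and other proteins to the inner face of the membrane. PIK3CA, PIK3CB and PIK3CD encode the p110 alpha, beta and delta subunits, which pair with p85-type regulatory subunits. PIK3CG encodes p110 gamma, which pairs instead with the p101 or p84 subunit, encoded by PIK3R5 and PIK3R6, and acts downstream of G protein-coupled receptors. INPP5D encodes SHIP1, which removes the 5-phosphate of PIP3 and is known mainly from blood cells.

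Count libraries held 6214675 to 11058345 assigned reads, so that 1 read was worth 0.0904 to 0.161 CPM (counts scaled to the library total). The summed level of 12 endothelial markers was 7368 to 10290 CPM in the course and the adherent cells, against 2058 CPM in suspended cells at 60 h and 938.4 CPM at 96 h. The summed level of 12 leukocyte markers was 251.2 to 574.8 CPM in the course, 325 CPM in adherent cells, and 1959 and 2554 CPM in suspended cells. PTPRC, which encodes the pan-leukocyte marker CD45, had 0 counts in the 5 libraries without vitamin C and in adherent cells. It also had 0 counts with vitamin C at 0 and 24 h. In suspended cells it had 22 and 52 counts, the lowest of the 12 leukocyte markers at both times. The summed level of 9 erythroid and megakaryocyte markers was 55.2 CPM in adherent cells, 1702 CPM in suspended cells at 60 h and 10270 CPM at 96 h. These are bulk libraries, in which fewer cells of a type and less RNA per cell cannot be told apart. The part these mixtures had in the values below was not tested.

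The catalytic isoform that stood apart in suspended cells was PIK3CB, which is classed among the broadly expressed isoforms. PIK3CB measured 29.1 CPM in adherent cells, 239.5 CPM in suspended cells at 60 h and 381 CPM in suspended cells at 96 h. The ratio of suspended to adherent cells at 60 h was 8.24, with a 95% counting interval of 7.18 to 9.48. Each of these groups is 1 library, so the interval covers counting error only and there is no replicate check. PIK3CB lies on chromosome 3 (GRCh38, 138652699 to 138834938, minus strand, GENCODE 29).

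PIK3CA (chromosome 3, 179148114 to 179240093, plus strand), the other catalytic isoform found in most tissues, was flat or lower in the same libraries. It measured 61.2 CPM in adherent cells, 52.6 CPM in suspended cells at 60 h and 43.7 CPM at 96 h. Its suspended-to-adherent ratio was 0.859 (counting interval 0.749 to 0.985). The 2 broadly expressed catalytic isoforms thus moved apart rather than together.

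PIK3CD (chromosome 1, 9651732 to 9729114, plus strand), known as the leukocyte isoform of class IA, was low throughout. It measured 9.12 CPM in adherent cells, 9.77 CPM in suspended cells at 60 h and 15.0 CPM at 96 h. The ratio at 60 h was 1.07, with an interval of 0.760 to 1.51 that holds 1. PIK3CB, classed as broadly expressed or endothelial, was thus higher in suspended cells at 60 h, and PIK3CD, classed as leukocyte, was level. At 60 h the leukocyte marker sum was 1959 CPM in suspended and 325 CPM in adherent cells. The erythroid and megakaryocyte sum was 1702 and 55.2 CPM. The suspended cells were thus high in both marker sets, so these ratios do not test the classes. The 8 genes are described singly below and not as an endothelial and a leukocyte group. PIK3CD overlaps CLSTN1 on the opposite strand, with 539 to 1915 counts of its own, and AKT1 and PIK3CA also overlap opposite-strand genes. Whether reads were counted by strand is not given in the sources used here, so these 3 genes' counts are less certain.

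The gamma isoform behaved differently at the 2 suspended times. PIK3CG (chromosome 7, 106865278 to 106907145, plus strand) measured 12.7 CPM in adherent cells, 24.3 CPM in suspended cells at 60 h and 7.96 CPM at 96 h. Its ratio of suspended to adherent cells was 1.91 (1.49 to 2.47), and that of 96 h to 60 h was 0.328 (0.2502 to 0.426). Its regulatory partner PIK3R5 (chromosome 17, 8878911 to 8965712, minus strand) measured 0.986, 15.4 and 15.55 CPM in the same 3 libraries. PIK3R5 at 60 h was 15.6-fold higher in the suspended cells than in the adherent (7.64 to 37.1, from 107 and 8 counts) and level from 60 to 96 h, with a ratio of 1.01 (0.790 to 1.3).

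Suspended cells also held more of the phosphatase transcript. INPP5D (chromosome 2, 233059967 to 233207903, plus strand) measured 87.0 CPM in adherent cells, 184.8 CPM in suspended cells at 60 h and 244.4 CPM at 96 h. The ratio at 60 h was 2.13 (1.94 to 2.33), and that of 96 h to 60 h was 1.32 (1.24 to 1.41). Per kilobase of exon INPP5D stood at 10.02 CPM in adherent cells, above PIK3CB at 3.70, PIK3CG at 2.14 and PIK3CD at 1.44.

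The AKT kinases, like PIK3CD, measured nearly the same in adherent and suspended cells at 60 h. AKT1 (chromosome 14, 104769349 to 104795751, minus strand), the broadly expressed isoform, measured 207.0, 221.5 and 166.8 CPM in adherent cells and in suspended cells at 60 and 96 h. AKT2 (chromosome 19, 40230317 to 40285536, minus strand), best known from insulin signaling, measured 77.1, 77.5 and 109.0 CPM. The ratios at 60 h were 1.07 (0.998 to 1.15) for AKT1 and 1.01 (0.894 to 1.13) for AKT2, both with intervals that hold 1. From 60 to 96 h AKT1 went down, with a ratio of 0.753 (0.703 to 0.806), while AKT2 went up, with a ratio of 1.41 (1.27 to 1.56).

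**Figure D1:**
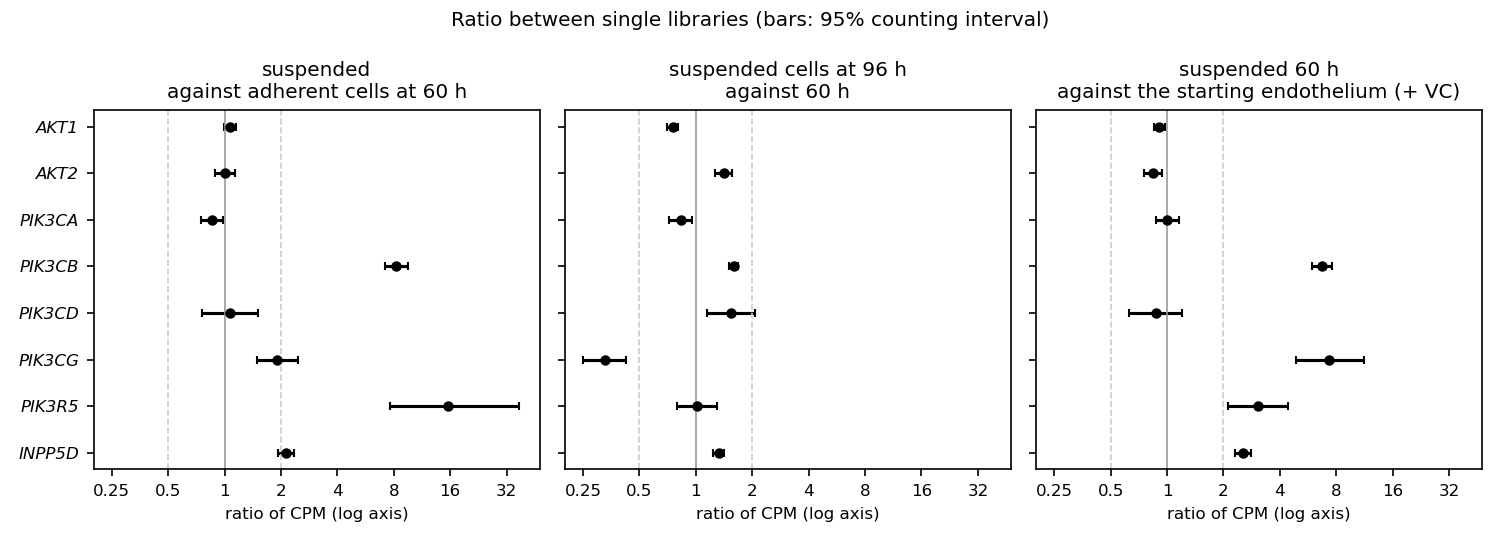
Ratio of CPM for each of the 8 genes on a log axis, in suspended against adherent cells at 60 h, in suspended cells at 96 h against 60 h, and in suspended cells at 60 h against the starting endothelium with vitamin C. Points are ratios of single libraries and bars are 95% counting intervals. PIK3R5 at 15.6 and PIK3CB at 8.24 stand highest against adherent cells, and PIK3CG at 0.328 stands lowest from 60 to 96 h.

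Counted at 2-fold, with 0.5 CPM added to both values, PIK3CB, PIK3R5 and INPP5D were higher in the suspended library of 60 h than in the adherent one and none of the 8 was lower. Over the 12705 genes that reached 5 CPM in either library, 12.3% were at least 2-fold higher and 14.6% at least 2-fold lower. From 60 to 96 h none of the 8 was 2-fold higher and PIK3CG was lower, where 5.54% of 12405 genes were higher and 10.5% lower. Against the starting endothelium with vitamin C, 4 of the 8 were 2-fold higher in suspended cells at 60 h and none was lower. In that comparison 9.86% of 12842 genes were higher and 13.8% lower. The 8 genes were chosen with these ratios known, so nothing is read from their counts.

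Scaling between libraries mattered for the smaller ratios. Trimmed-mean (TMM) scaling shifted every log2 ratio of suspended to adherent cells by -0.12 and every log2 ratio of 96 h to 60 h by 0.21. With it, INPP5D was 1.95-fold and PIK3CG 1.76-fold higher in suspended than in adherent cells, PIK3CB 7.57-fold and PIK3R5 14.35-fold. The ratios of AKT1, AKT2 and PIK3CD became 0.984, 0.924 and 0.986, below 1 under TMM scaling and above 1 under CPM. From 60 to 96 h under TMM scaling the ratio of PIK3CG was 0.380, that of AKT1 0.874 and that of PIK3CA 0.963.

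The starting endothelium gave a different reference for PIK3CG. At 0 h with vitamin C, PIK3CG measured 3.33 CPM, so that suspended cells at 60 h were 7.30-fold higher (4.90 to 11.2). The ratio was 6.71 (5.94 to 7.60) for PIK3CB, 3.05 (2.13 to 4.43) for PIK3R5 and 2.54 (2.31 to 2.80) for INPP5D. These comparisons share the suspended library with those above and are not independent of them.

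Per kilobase of exon, the class I catalytic transcripts of adherent cells were led by PIK3CA. PIK3CA made up 46.96% of the 4 catalytic subunits' summed level in adherent cells, with an exact binomial 95% interval of 43.7% to 50.3% that holds the mix of the other subunits fixed. PIK3CB made up 26.97% (24.1% to 30.0%), PIK3CG 15.6% (12.96% to 18.5%) and PIK3CD 10.5% (8.35% to 12.9%). In suspended cells at 60 h the share of PIK3CB was 73.2% (71.3% to 75.0%), and at 96 h it was 85.4% (84.4% to 86.3%). PIK3CA held 13.3% and 8.09% in those libraries, and PIK3CD 3.70% and 4.17%. The lead thus passed from PIK3CA to PIK3CB between adherent and suspended cells, and in neither did PIK3CD or PIK3CG lead. Over the course PIK3CA held the largest share in 8 of 10 libraries, in 9 with no division by length and in 6 with the exon length of basic coding transcripts. PIK3CB was ahead at 0 h without vitamin C, with 44.4% (41.2% to 47.6%) against 40.65% (37.6% to 43.8%), and at 60 h with vitamin C, with 44.5% (41.5% to 47.5%) against 33.9% (31.2% to 36.7%).

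**Figure D2:**
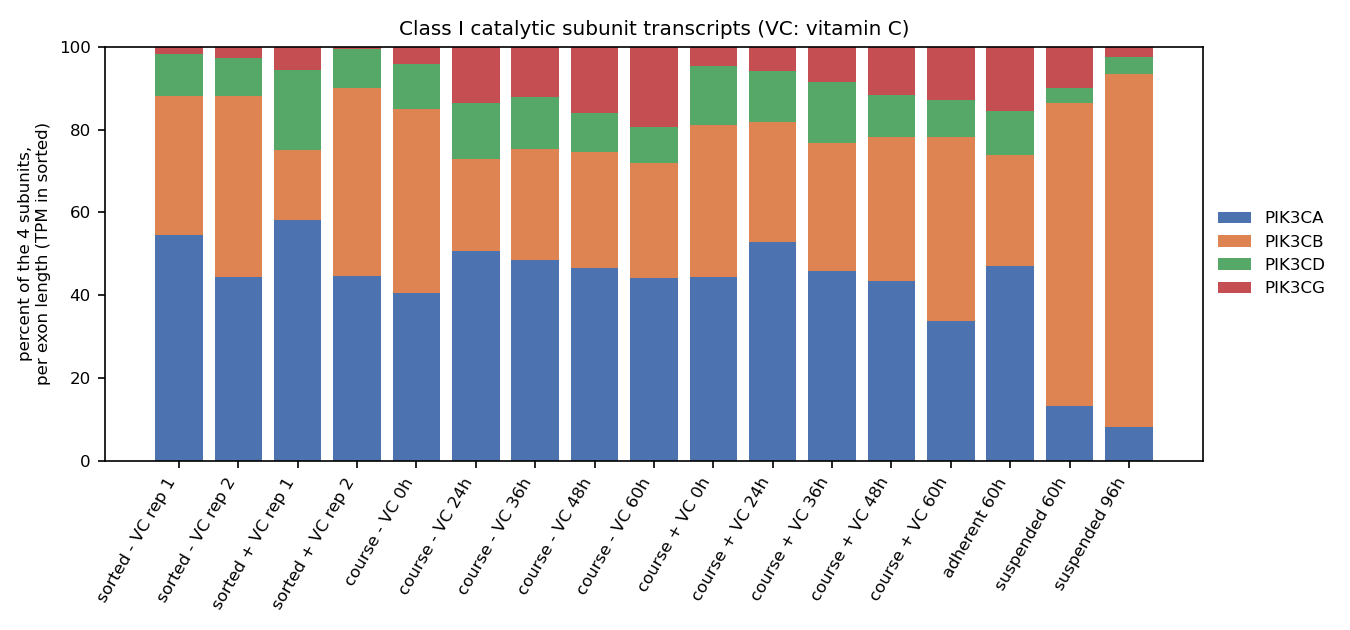
Share of the summed level of PIK3CA, PIK3CB, PIK3CD and PIK3CG held by each gene, in percent, from CPM per kilobase of exon in the count libraries and from TPM in the sorted libraries. Each bar is 1 library and sums to 100%. PIK3CB holds 26.97% in adherent cells, 73.2% in suspended cells at 60 h and 85.4% at 96 h.

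Of the AKT kinases AKT1 stood above AKT2 in each of these libraries. AKT1 made up 78.3% (76.7% to 79.9%) of the summed AKT1 and AKT2 level per kilobase in adherent cells, 79.4% (77.7% to 81.0%) in suspended cells at 60 h and 67.3% (65.7% to 68.9%) at 96 h. The intervals of adherent and suspended cells at 60 h overlapped, and that of 96 h lay below both.

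The transcripts of the gamma complex's subunits, PIK3CG, PIK3R5 and PIK3R6, were set side by side per kilobase of exon. No protein was measured, so the make-up of the complex itself was not tested. In adherent cells PIK3CG stood at 2.14 CPM per kilobase, PIK3R5 at 0.131 and PIK3R6 at 0.0346, the last from 1 count. In suspended cells at 60 h the 3 values were 4.10, 2.05 and 2.30, and at 96 h they were 1.34, 2.07 and 4.36. The regulatory subunits summed to 0.0775 times the catalytic subunit in adherent cells, 1.06 times in suspended cells at 60 h and 4.80 times at 96 h. These ratios between genes depend on the exon length used. It was 7506 bases for PIK3R5, against 4549 in basic coding transcripts, and 5930 against 5526 bases for PIK3CG. A ratio near 1 is therefore not read as equal amounts of the subunits. PIK3R6 had 1 count in adherent and 57 in suspended cells at 60 h, a CPM ratio of 66.5 with an interval of 11.5 to 2672.

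PIK3CB, PIK3R5, PIK3CG and INPP5D were the 4 genes at least 2-fold higher in suspended cells than in the starting endothelium, and the sequences at their transcription start sites are shown for that reason. Each window runs from 250 bases before to 50 bases after a start site of RefSeq (GRCh38.p14), on the gene's strand. The windows are chr2:233060092-233060391 (plus) for INPP5D, chr7:106865229-106865528 (plus) for PIK3CG, chr3:138834879-138835178 (minus) for PIK3CB, and chr17:8965658-8965957 and chr17:8912468-8912767 (both minus) for the first and second start sites of PIK3R5. Capitals mark 3 motifs on either strand: the PU box GAGGAA, which contains the ETS core GGAA, the GATA motifs AGATAA and TGATAA, and the RUNX motif TGTGGT.
INPP5D: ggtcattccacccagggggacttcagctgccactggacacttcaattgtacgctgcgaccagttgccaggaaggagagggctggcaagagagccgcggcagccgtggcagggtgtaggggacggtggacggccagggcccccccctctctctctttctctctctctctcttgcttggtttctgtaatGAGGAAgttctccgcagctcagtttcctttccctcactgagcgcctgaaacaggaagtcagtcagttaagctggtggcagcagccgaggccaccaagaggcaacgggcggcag
PIK3CG: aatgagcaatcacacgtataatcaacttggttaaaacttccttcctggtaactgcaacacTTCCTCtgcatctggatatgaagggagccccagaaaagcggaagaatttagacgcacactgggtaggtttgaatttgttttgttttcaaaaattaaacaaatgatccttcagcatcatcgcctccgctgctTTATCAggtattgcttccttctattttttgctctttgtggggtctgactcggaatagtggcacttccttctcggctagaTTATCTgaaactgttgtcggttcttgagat
PIK3CB: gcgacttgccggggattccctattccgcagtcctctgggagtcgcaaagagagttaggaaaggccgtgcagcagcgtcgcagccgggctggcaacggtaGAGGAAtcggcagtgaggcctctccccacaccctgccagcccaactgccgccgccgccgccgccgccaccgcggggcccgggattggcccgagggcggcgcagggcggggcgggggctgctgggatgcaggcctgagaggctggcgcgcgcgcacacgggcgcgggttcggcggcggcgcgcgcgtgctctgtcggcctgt
PIK3R5, first start site: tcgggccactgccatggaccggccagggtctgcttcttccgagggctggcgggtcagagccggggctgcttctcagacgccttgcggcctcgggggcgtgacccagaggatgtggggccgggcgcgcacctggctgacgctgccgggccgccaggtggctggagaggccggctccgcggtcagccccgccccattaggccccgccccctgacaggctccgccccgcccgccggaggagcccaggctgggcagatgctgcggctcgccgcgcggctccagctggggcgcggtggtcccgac
PIK3R5, second start site: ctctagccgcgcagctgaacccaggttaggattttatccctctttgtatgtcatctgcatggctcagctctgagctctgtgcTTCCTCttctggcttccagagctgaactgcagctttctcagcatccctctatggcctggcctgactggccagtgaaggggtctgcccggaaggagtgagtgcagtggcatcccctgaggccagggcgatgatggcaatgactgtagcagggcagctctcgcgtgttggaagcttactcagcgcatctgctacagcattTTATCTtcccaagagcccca

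A PU box lay 63 bases before the start in INPP5D, 190 bases before it on the opposite strand in PIK3CG and 151 bases before it in PIK3CB. The first PIK3R5 window held none of the 3 motifs, and the second held a PU box 168 bases before the start and a GATA motif, both on the opposite strand. The PIK3CG window held 2 GATA motifs. Of 35116 RefSeq windows of the same length, 27.9% held a PU box, 16.3% a GATA motif, 13.1% a RUNX motif and 95.5% an ETS core. The 3 PIK3CD windows held no PU box, and the third held a GATA motif and a RUNX motif. The second of the 2 AKT1 windows held a PU box 119 bases before the start, and the single PIK3CA window and both AKT2 windows held none of the 3 motifs. PIK3CB has a second start site whose window, not shown, held no PU box and a GATA motif 105 bases before the start. A match is a description of these letters and shows no binding.

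With all 10 libraries of the plated course in the fit, PIK3CG had the steepest upward slope of the 8 in both conditions. Without vitamin C it measured 3.62, 13.5, 12.6, 16.5 and 17.8 CPM at 0, 24, 36, 48 and 60 h. With vitamin C it measured 3.33, 5.63, 9.33, 11.9 and 15.4 CPM. The gain without vitamin C came largely by 24 h, whereas with vitamin C each library stood above the one before. As a line on the log2 scale, the change per 60 h was 2.06 ± 0.49 (SE) without and 2.27 ± 0.47 with vitamin C. Without the 0 h library of its own condition, the slope was 0.78 without and 2.23 with vitamin C. The 0.78 lay below the 3.06 of INPP5D with the same library left out, so the ranking without vitamin C rested on that library.

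PIK3CB was higher at 60 h than at 0 h with vitamin C only. Without vitamin C it measured 51.8, 29.5, 36.7, 38.4 and 34.1 CPM, highest at 0 h. With vitamin C it measured 35.7, 37.0, 44.6, 47.0 and 70.55 CPM, highest at 60 h. The slopes per 60 h were -0.45 ± 0.28 and 0.91 ± 0.29 (log2 ± SE), a difference of 1.37 ± 0.40. The downward slope rested on the 0 h library without vitamin C: leaving it out gave a slope of 0.32 and a difference of 0.60. Across all 16276 genes, 0.0% had slopes called different between conditions (edgeR, adjusted p threshold 0.05), 473 had an unadjusted p under 0.05, and DESeq2 called 6 higher and 5 lower.

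INPP5D went down and then up in both conditions. It measured 31.0, 16.99, 31.0, 43.4 and 64.1 CPM without vitamin C and 72.8, 42.8, 56.9, 83.7 and 101.4 CPM with it. The lowest library of each condition was that of 24 h. Its slope per 60 h was 1.15 ± 0.51 without and 0.57 ± 0.50 with vitamin C, and 3.06 and 2.08 when the 0 h library of that condition was left out.

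PIK3R5 was down to a few reads without vitamin C. It measured 3.10, 1.57, 0.796, 0.463 and 0.6465 CPM without vitamin C, from 24, 12, 7, 3 and 5 counts. With vitamin C it measured 5.05, 2.09, 1.21, 3.82 and 3.95 CPM, lowest at 36 h. As the catalytic PIK3CG went up, the regulatory subunits' sum per kilobase went from 0.796 times that of PIK3CG at 0 h to 0.0377 to 0.108 times at 24 to 60 h without vitamin C. With vitamin C it went from 1.37 times to 0.211 to 0.362 times.

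AKT1, AKT2, PIK3CA and PIK3CD varied within narrower bounds. AKT1 measured 238.1, 252.0, 258.2, 206.0 and 211.8 CPM without vitamin C and 243.1, 251.5, 244.6, 226.5 and 208.6 CPM with it. AKT2 measured 96.0, 57.9, 66.9, 68.5 and 70.7 CPM without and 92.3, 50.2, 64.2, 74.1 and 71.0 CPM with vitamin C. In both conditions AKT2 was highest at 0 h and lowest at 24 h.

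PIK3CA ran the other way, lowest at 0 h and highest at 24 h in both conditions. It measured 57.4, 80.75, 80.7, 76.85 and 65.3 CPM without and 52.35, 81.9, 80.0, 70.9 and 65.0 CPM with vitamin C. PIK3CD measured 10.2, 14.4, 13.9, 10.3 and 8.53 CPM without and 11.25, 12.7, 16.96, 11 and 11.3 CPM with it, with no time at which it exceeded 16.96 CPM. For these 4 genes the slopes per 60 h ran from -0.37 ± 0.32 (AKT2 without vitamin C) to 0.26 ± 0.34 (PIK3CA with it), each smaller than 1.5 times its SE. Left without the 0 h library of that condition, AKT2 sloped upward (0.43 without and 0.78 with vitamin C) and PIK3CA downward (-0.51 and -0.65).

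**Figure D3:**
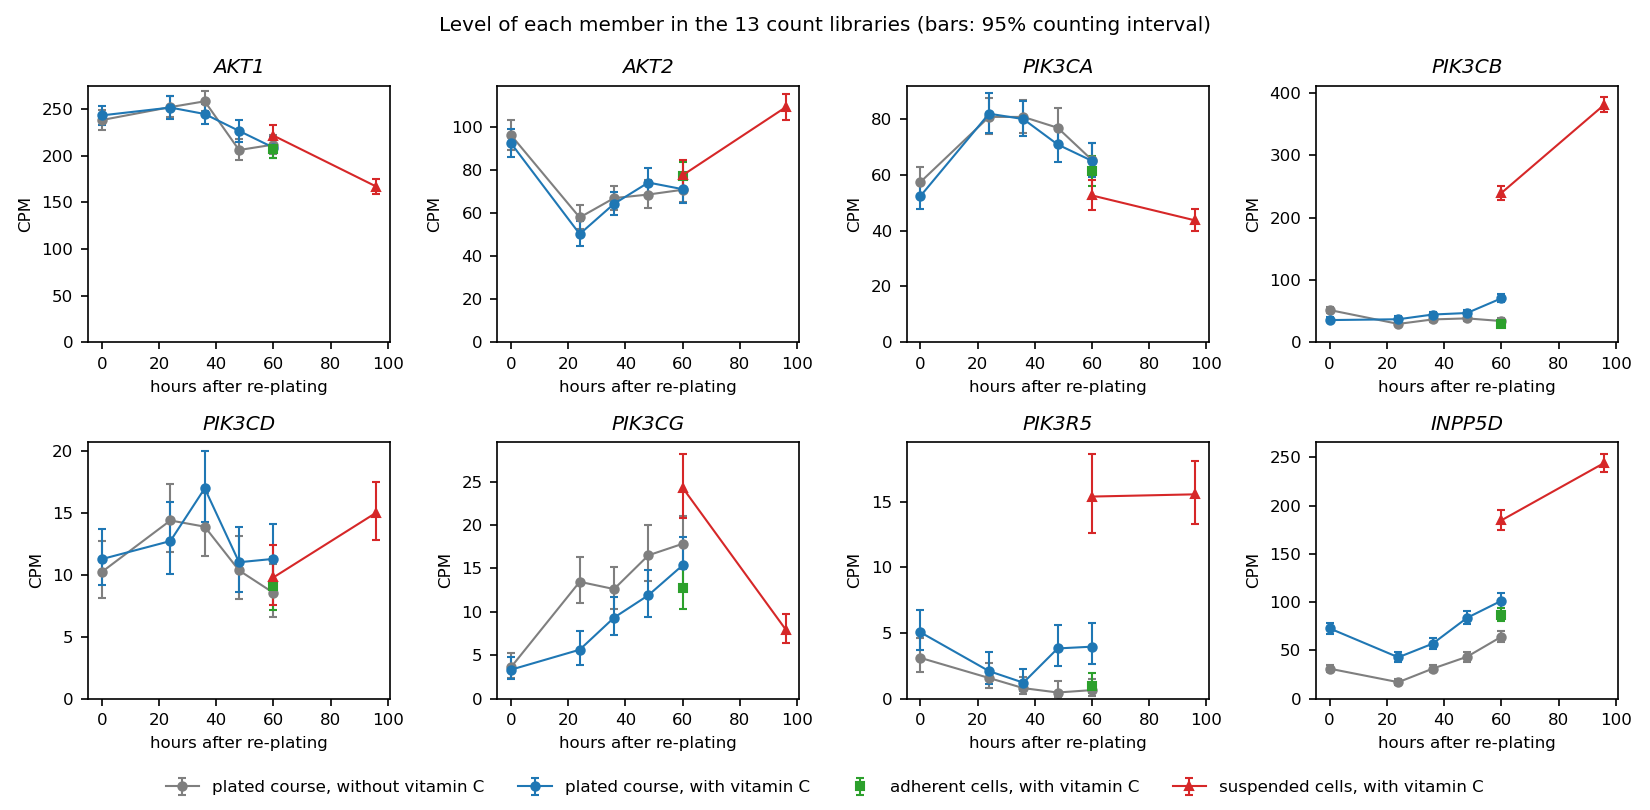
CPM, on an axis from 0, for each of the 8 genes against hours after plating, with 1 line for cells made without and 1 for cells made with vitamin C, and separate points for the adherent and suspended libraries. Each point is 1 library and bars are 95% counting intervals. The lines of INPP5D stay apart at all 5 times, and those of PIK3CB cross between 0 and 24 h.

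Within the course, INPP5D differed most steadily with vitamin C. In the sorted libraries, grouped by the titles, its difference was -0.11 ± 0.57 (log2 ± SE). In the course, the INPP5D ratio of cells with to cells without vitamin C was 2.35 at 0 h, 2.52 at 24 h, 1.83 at 36 h, 1.93 at 48 h and 1.58 at 60 h. All 5 counting intervals lay above 1. With time as a factor, the difference was 0.99 ± 0.10 (log2 ± SE) over the 5 times. The leukocyte marker sum was nearly level at 0 h, at 349.1 and 343.5 CPM in cells without and with vitamin C, and at 60 h it was 294.2 and 574.8 CPM. LAPTM5 made up most of the sum at 0 h, at 256.4 and 205.7 CPM, and 9 of the 12 markers were higher with vitamin C at that time, among them SPI1 at 6.08 against 1.03 CPM. Their part in the INPP5D ratio was not tested.

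PIK3CG was lower with vitamin C, mainly at the middle times. Its ratios were 0.920, 0.419, 0.739, 0.721 and 0.861 from 0 to 60 h, and the intervals at 24, 36 and 48 h lay below 1. The difference over the course was -0.51 ± 0.18 (log2 ± SE). The summed level of 8 mesenchymal markers was also lower with vitamin C. It was 458.6 against 709.2 CPM at 24 h, 400.0 against 802.5 CPM at 36 h and 452.7 against 974.2 CPM at 48 h. Of the 8 markers, 7, 7 and 6 were lower at these times. At 60 h the sum was 531.3 against 1444 CPM. The leukocyte marker sum was higher with vitamin C at 24, 36 and 48 h. It was 288.2 against 259.1, 355.4 against 268.0 and 388.8 against 251.2 CPM. The endothelial and the erythroid and megakaryocyte sums were also higher at these times. The part of these marker sums in the PIK3CG ratios was not tested. PIK3R5 was higher with vitamin C late in the course, with ratios of 8.25 at 48 h (2.52 to 42.7) and 6.11 at 60 h (2.32 to 20.3), against 3 and 5 counts. At 0, 24 and 36 h the PIK3R5 ratios were 1.63, 1.33 and 1.52, with intervals that hold 1. The catalytic subunit and its p101 partner thus differed in opposite directions with both intervals off 1 at 48 h only.

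For PIK3CB the ratio was 0.689 at 0 h (0.592 to 0.801), 1.25, 1.21 and 1.22 at 24, 36 and 48 h, and 2.07 at 60 h (1.78 to 2.41). The erythroid and megakaryocyte marker sum at 60 h was 64.1 and 311.0 CPM in cells without and with vitamin C. At that time the leukocyte sum was also higher with vitamin C, and the endothelial and mesenchymal sums were lower. The part of these sums in the PIK3CB ratio was not tested. AKT1 (0.01 ± 0.06), AKT2 (-0.04 ± 0.08), PIK3CA (-0.05 ± 0.07) and PIK3CD (0.14 ± 0.14) showed log2 differences within 1 SE or close to it over the course. In edgeR's quasi-likelihood test, 5.87% of all 16276 genes were called for vitamin C (adjusted p threshold 0.05), 2.5% higher and 3.37% lower. With vitamin C 1.78% of genes were called for time, 0.915% higher and 0.86% lower, and without it 4.28% were, 2.15% higher and 2.13% lower. The 8 genes were chosen with these libraries in view, so their calls in these fits are not given. Leaving out each of the 10 libraries in turn, the log2 difference of INPP5D with vitamin C ran from 0.91 to 1.08. The slope of PIK3CG per 60 h ran from 2.22 to 2.41 with and from 0.78 to 2.59 without vitamin C.

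The 4 sorted libraries carry a conflict in their labels. Titles and descriptions disagree on vitamin C for 2 of them, replicate 1 with vitamin C and replicate 2 without it, and the descriptions give both libraries of a replicate number the same condition. The titles are used below. The values are TPM (transcript shares scaled by length) of unknown depth, and levels are not compared between TPM and CPM.

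In sorted endothelium AKT1 led and PIK3CG was lowest of the 8. In each pair of values that follows, replicate 1 comes before replicate 2, and untreated means made without vitamin C. AKT1 measured 240.0 and 209.0 TPM in untreated cells and 261.8 and 197.2 TPM with vitamin C. AKT2 measured 103.8 and 100.1 TPM in untreated cells and 79.3 and 58.7 TPM with vitamin C. AKT2 was the only one of the 8 whose conditions did not overlap, as did not those of 28.4% of 14421 genes.

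Of the phosphatase and the gamma complex in the sorted cells, INPP5D stood highest. INPP5D measured 55.9 and 75.9 TPM in untreated cells and 33.3 and 108.2 TPM with vitamin C, so that the libraries with vitamin C lay on both sides of the others. PIK3R5 measured 4.51 and 9.70 TPM in untreated cells and 3.6 and 7.22 TPM in treated ones, and PIK3CG 0.95 and 1.34 TPM against 3.11 and 0.26 TPM. PIK3R5 was thus above PIK3CG in each of the 4 sorted libraries.

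PIK3CA led the catalytic subunits in 3 of the 4 sorted libraries. It measured 32.1 and 23.4 TPM in untreated cells and 32.4 and 20.6 TPM with vitamin C. PIK3CB measured 19.9 and 23.0 TPM in untreated cells and 9.41 and 21.0 TPM with vitamin C, close to PIK3CA in both libraries numbered 2. PIK3CD measured 6.0 and 4.89 TPM in untreated cells and 10.8 and 4.32 TPM with vitamin C.

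By replicate number the same values separated more often. In both libraries numbered 2, PIK3CB, PIK3R5 and INPP5D were higher and AKT1, PIK3CA and PIK3CD lower than in both libraries numbered 1. These are 6 of the 8 genes, beside 55.1% of all 14421 genes. For vitamin C by the titles, limma on log2(TPM + 1) gave differences from -0.57 ± 0.26 (AKT2) to 0.31 ± 0.52 (PIK3CD; log2 ± SE). It called 0.0% of all 14421 genes, with 313 genes at an unadjusted p under 0.05.

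**Figure D4:**
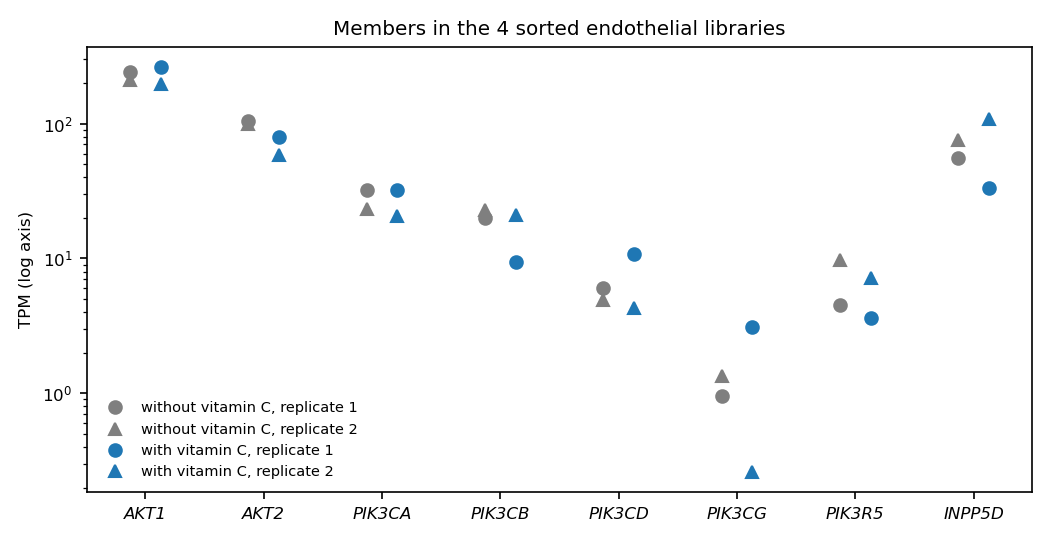
TPM on a log axis for each of the 8 genes in the 4 sorted endothelial libraries, coloured by the vitamin C condition in the titles. Each point is 1 library. The libraries of the 2 conditions overlap for 7 of the 8 genes, and AKT1 stands highest, between 197.2 and 261.8 TPM.

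A list of 70 other genes of the pathway, in 8 roles, gives the surroundings of the 8. Over the course 61 of the 70 were tested with edgeR's quasi-likelihood test, and for vitamin C 5 rose and 2 fell. The list's median log2 difference was 0.03, beside 0.0071 over all 16276 genes. Among those higher with vitamin C were VAV1, a signaling protein of blood cells (1.12 ± 0.13, adjusted p = 0.000409), the stem cell factor receptor KIT (0.76 ± 0.13, adjusted p = 0.00464), the adaptor GAB1 (0.34 ± 0.07, adjusted p = 0.0178) and the PIP3-dependent Rac activator PREX1 (0.37 ± 0.09, adjusted p = 0.0270). Those lower were the VEGF receptor FLT1 (-0.23 ± 0.06, adjusted p = 0.0313) and the insulin receptor INSR (-0.94 ± 0.23, adjusted p = 0.0338). With a single library at each time and condition, these p-values measure departures among libraries, not cultures. Leaving out single libraries ended 4 of the calls, with adjusted p from 0.05005 to 0.124. FLT1 was lost without any library of 24 to 60 h, INSR without any but that of 0 h with vitamin C, GAB1 without any of 24, 36 or 60 h, and PREX1 without any of 24 or 48 h.

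The regulatory subunit PIK3R2 had 0 counts in adherent and suspended cells and 13.4 to 19.1 TPM in the sorted tables, so its counts and its TPM are at odds and its counts are uncertain.

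With hours after plating of the cells made with vitamin C, 1 of the 61 list genes rose and 1 fell. The tyrosine kinase SYK rose (1.94 ± 0.37 log2 per 60 h, adjusted p = 0.0346 in edgeR). Its call was lost without any single library with vitamin C, and without the untreated library of 36 or 48 h, with adjusted p in edgeR from 0.05385 to 0.189. Without vitamin C, the class II kinase PIK3C2B rose (1.77 ± 0.27, adjusted p = 0.00907), and without that condition's 0 h library its adjusted p was 0.114. For the difference in slope edgeR called 0 of the 61, with 4 at an unadjusted p under 0.05, and DESeq2 also called 0. The p85 alpha subunit gene PIK3R1 differed by 0.12 ± 0.10 (log2 ± SE) with vitamin C and was not called.

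Between suspended and adherent cells at 60 h, 60 of the 70 reached 5 CPM, and 15 were at least 2-fold higher and 11 lower, beside 12.3% and 14.6% of all genes. The median log2 ratio of the list was 0.06, beside 0.138 over all genes. The role with most genes past 2-fold was that listed as PIP3 effectors, with 7 of 10 higher and 2 lower. This role was drawn widely and also holds SYK and RAC2, so its name does not mean that each protein binds PIP3. The kinase BTK measured 303.6 CPM in suspended and 29.1 CPM in adherent cells, SYK 154.5 and 17.4 CPM, TEC 99.3 and 11.7 CPM, and the small GTPase gene RAC2 207.0 and 28.3 CPM. PREX1 and ARAP3, also PIP3 effectors, were lower in suspended cells, at 103.8 against 566.0 CPM and 69.6 against 206.4 CPM. RAC2 and VAV1 also belong to the 12 leukocyte markers.

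Of 10 upstream receptors, 4 were at least 2-fold higher and 3 lower in suspended cells, and of 13 AKT substrates and mTORC1 regulators 1 was higher and 2 lower. The VEGF receptor KDR measured 694.0 CPM in suspended and 4699 CPM in adherent cells, FLT1 600.5 and 3880 CPM, and the nitric oxide synthase NOS3, an AKT substrate, 39.2 and 262.2 CPM. At 96 h they were at 81.1, 12.6 and 1.27 CPM. PIK3R1, at 38.2 and 39.4 CPM, had a suspended-to-adherent ratio of 0.970 (0.821 to 1.15). This partner of p110 beta thus gave no ratio near the 8.24 of PIK3CB.

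**Figure D5:**
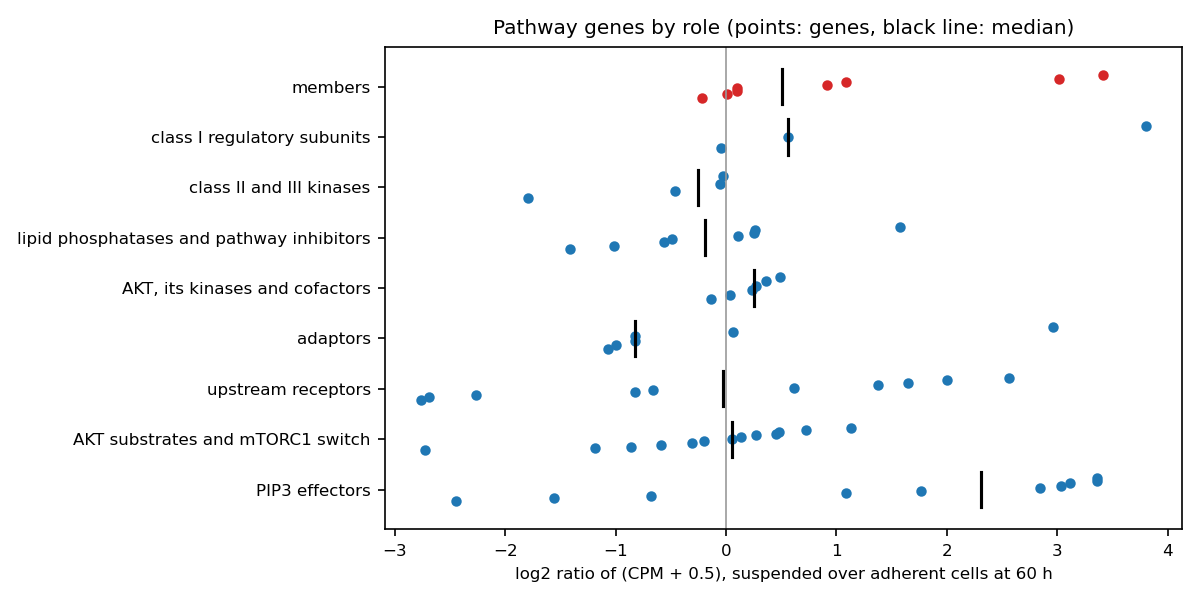
Log2 ratio of CPM, suspended against adherent cells at 60 h, for the 8 genes (red) and the genes of the pathway list with at least 5 CPM (blue), arranged by role, with 0.5 CPM added to both values. Each point is 1 gene from 1 library in each group, and black lines are medians. Of the 10 genes listed as PIP3 effectors, 7 lie at least 2-fold up, whereas PREX1 and ARAP3 lie at least 2-fold down.

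The 3 genes most like each of the 8 were taken by Pearson's correlation of log2 CPM over the 13 count libraries, among 12045 genes, as a description. PIK3CB was most like PRKAR2B (r = 0.993), a regulatory subunit of protein kinase A, the mitochondrial carrier UCP2 (0.990) and the heme synthesis enzyme CPOX (0.983). Without the 2 suspended libraries these were 0.923, 0.910 and 0.786. INPP5D was most like SLC28A3 (0.948), NRROS (0.944) and SPI1 (0.937), which encodes the ETS factor PU.1, with 0.892, 0.905 and 0.875 without the suspended libraries. PIK3R5 was most like APEX1 (0.959), CKB (0.955) and TREML2 (0.954), and PIK3CG like TM7SF3 (0.930), BAHD1 (0.915) and MCAT (0.915).

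The neighbours of the remaining genes are given here. Among the genes most like PIK3CD were CAPZA1 (0.851) and CHEK1 (0.848), a kinase of the DNA damage checkpoint. PIK3CA was most like CDK17 (0.976), MSANTD3 (0.969) and KIF5B (0.967), AKT1 like AC069234.3 (0.947), RUFY2 (0.946) and FAM171A1 (0.925), and AKT2 like UBE2L6 (0.948), NDUFB4 (0.943) and SRSF5 (0.938). Between the 8 themselves, AKT2 and PIK3CA ran opposite to each other, with r = -0.894 over 13 libraries and -0.883 without the suspended ones. The points share the libraries and their depth.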

How the data were processed

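RNA was measured by sequencing in 17 libraries of H1-derived cells, with groups taken from the sample titles. Per the labels' protocols, RNA was taken with Trizol for TruSeq libraries. The authors deposited 13 tables of raw read counts and 4 tables of the sorted cells that were read as TPM: their ratio to the counts fell with exon length (log2 slope -0.693 over 10006 genes). Tools listed in the submitters' processing notes are DESeq 1.18.1, HTSeq 0.6.0, HISAT2 2.0.4 and SAMtools 1.3.1, with builds hg38 and GRCh38. The role of each tool, the annotation and the strand of counting are not given in the sources used here.

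Genes were named with GENCODE 29. CPM divides counts by each library's total. Counts of the course were tested with edgeR 4.0.16 (quasi-likelihood test, TMM scaling, filterByExpr; R 4.3.3) on time as a factor plus vitamin C, or on 1 line per condition scaled to 60 h. TPM were tested with limma 3.58.1 on log2(TPM + 1), with at least 1 TPM in 2 libraries. This scale understates the change of low genes. All p-values are two-sided and were adjusted by Benjamini and Hochberg's method across every tested gene, and the fits were checked on simulated data. Groups of 1 library got ratios with exact binomial intervals, which cover counting error only. DESeq2 1.42.0, other filters and scalings, and leaving out each library were alternatives.

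The 8 genes and the lists were chosen with earlier results of these data known. Genes were named by a rule: the 8, PIK3R1 and PIK3R6 in any case, list genes past the threshold, the 3 highest and 3 lowest list genes of each library pair, and the 3 genes most like each of the 8. TEC, RAC2, ARAP3 and PIK3R2 were added after their values were seen. Some genes that the rule names are not reported here.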

Additional observations from a re-analysis of the deposited data

How the results depend on the processing

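Of the 70 pathway genes, 7 were called for vitamin C over the course. The count was 16 with no filter on low counts, 0 with no term for time, 13 without both 0 h libraries, and 4 to 16 leaving out each library in turn. Over all 16276 genes, 407 were called higher and 548 lower. These were 720 and 871 of 31039 with no filter, and 6 and 14 of 16276 with no term for time. They were 513 and 654 of 15602 without both 0 h libraries, and 195 to 537 and 299 to 688 leaving out each library. For hours with vitamin C, 2 were called, against 8 with DESeq2, 7 with no filter, 13 without both 0 h libraries and 0 to 7 leaving out each library. Over all genes 149 were called higher and 140 lower, against 416 and 296 with DESeq2 and 220 and 218 with no filter. They were 1000 and 814 without both 0 h libraries, and 8 to 360 and 1 to 320 leaving out each library. For hours without vitamin C, 1 was called, against 5, 4, 14 and 1 to 5 under the same settings. Over all genes 350 were called higher and 347 lower, against 664 and 620 with DESeq2 and 406 and 433 with no filter. They were 1347 and 1198 without both 0 h libraries, and 104 to 545 and 47 to 552 leaving out each library. In these counts the cause was not tested. The share of PIK3CB in suspended cells at 60 h was 77.1% with the exon length of basic coding transcripts, chosen after seeing the data, against 73.2%. That of AKT1 was 74.1% with no division by length, against 79.4%. With TMM scaling 2 of the 8 genes, not 3, were 2-fold higher in suspended than in adherent cells, and INPP5D was the one no longer counted. None of the called changes of list genes named in the text turned its direction under these settings. Ratios or slopes without a call did turn, as given above for AKT1, AKT2, PIK3CA, PIK3CB and PIK3CD. Values of the other members turned as well when single libraries were left out. The PIK3R5 slope with vitamin C ran from -0.90 to 2.07, and the INPP5D difference in sorted cells from -0.95 to 0.72. The difference in slope ran from -2.49 to 0.91 for INPP5D and from -0.31 to 1.49 for PIK3CG. No called direction depends on replication of the suspended or adherent cells, which have 1 library each.

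Sorted libraries of the same replicate number deviated together (r = 0.565 over 14421 genes), but the 2 numbers alone do not show a pairing. With the replicate number as a block, limma called 0 pathway genes and 0 of 14421 genes, with 1237 at an unadjusted p under 0.05, against 313 without the block. With groups taken from the descriptions, which are the replicate numbers, it called 37 genes higher and 119 lower over all genes, and 0 of the pathway list.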
